A study of Mus musculus with 14 samples.

Results

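T cells and cytotoxic lymphocytes were followed here through 9 genes, namely the CD3 chains *Cd3e*, *Cd3d* and *Cd3g*, the coreceptors *Cd4*, *Cd8a* and *Cd8b1*, and the cytotoxic effectors *Nkg7*, *Gzmb* and *Prf1*. They were taken by symbol from a table of 46904 genes, all 9 were listed, and all 9 passed the filter of a value above 0 in at least 2 libraries. Expression was low: 8 of the 9 held at most 5 reads in every library, and *Cd4*, which held 71 to 523 reads, was the exception.

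The libraries came from brain hemispheres of male mice aged 12 weeks, taken 48 h after a 20 min transient occlusion of the left middle cerebral artery (MCAO) with a filament. Wild-type mice (*Cort*+/+) gave 3 contralateral (CL) and 3 ischemic (MCAO) hemispheres. The latter are numbered 2 to 4, while the study describes 5 MCAO replicates. Mice with a constitutive deletion of cortistatin (*Cort*-/-), a neuropeptide related to somatostatin, gave 3 CL and 5 MCAO hemispheres, on the same C57BL/6J background. No sham group entered, so CL hemispheres are those of operated mice, and each library is 1 whole hemisphere in which fewer cells of a type and less RNA per cell cannot be told apart. Expression was given as RPKM, a read count divided by gene length and by the size of its library, and the libraries held 25988460 to 43030192 reads on genes. *Cort* itself was read 64 to 139 times in the 6 *Cort*+/+ libraries and 0 to 4 times in the 8 *Cort*-/- libraries.

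The CD3 chains form the signalling part of the T cell receptor complex and are made by all T cells, so they are the usual mark of a T cell in tissue. CD4 and CD8 bind MHC class II and class I molecules beside the receptor and divide T cells into helper and cytotoxic classes. Cytotoxic T cells and natural killer (NK) cells kill through granules that hold perforin (*Prf1*), which opens the target membrane, and granzymes such as granzyme B (*Gzmb*), while *Nkg7* encodes a protein of the granule membrane. T cells enter the ischemic brain in small numbers during the first days and in larger numbers later. In mice CD4 is also made by some myeloid and dendritic cells, and the mouse brain is known to hold a shorter *Cd4* transcript, which values per gene do not separate from the full one.

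*Cd3g*, *Cd3d* and *Cd3e* lie side by side on chromosome 9 of GRCm39, at chr9:44880870-44891735, chr9:44893083-44899173 and chr9:44910037-44920925. All are protein-coding, and *Cd3g* and *Cd3d* start 1348 bases apart and point away from each other. Their promoters, 250 bases before to 50 bases after the start in RefSeq on GRCm38.p6, are shown because the 3 genes stayed near 0 in all libraries. The windows are chr9:44980382-44980681 on the minus strand for *Cd3g*, chr9:44981536-44981835 on the plus strand for *Cd3d* and chr9:45009562-45009861 on the minus strand for *Cd3e*. Capitals mark the ETS core GGAAGT, read as ACTTCC on the other strand, and the E-box form CAGCTG, searched on both strands. Other forms of the E-box were not searched.
Cd3g: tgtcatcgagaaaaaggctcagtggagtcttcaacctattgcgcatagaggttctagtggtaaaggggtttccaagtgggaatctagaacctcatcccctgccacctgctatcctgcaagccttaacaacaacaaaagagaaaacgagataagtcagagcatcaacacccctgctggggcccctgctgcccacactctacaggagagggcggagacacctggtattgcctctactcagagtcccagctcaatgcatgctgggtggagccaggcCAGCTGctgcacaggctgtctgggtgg
Cd3d: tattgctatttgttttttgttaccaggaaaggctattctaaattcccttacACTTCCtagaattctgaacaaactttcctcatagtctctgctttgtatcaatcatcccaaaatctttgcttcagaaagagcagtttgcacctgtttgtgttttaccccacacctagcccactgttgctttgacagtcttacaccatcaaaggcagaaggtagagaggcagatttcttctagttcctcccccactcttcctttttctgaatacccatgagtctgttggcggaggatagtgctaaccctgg
Cd3e: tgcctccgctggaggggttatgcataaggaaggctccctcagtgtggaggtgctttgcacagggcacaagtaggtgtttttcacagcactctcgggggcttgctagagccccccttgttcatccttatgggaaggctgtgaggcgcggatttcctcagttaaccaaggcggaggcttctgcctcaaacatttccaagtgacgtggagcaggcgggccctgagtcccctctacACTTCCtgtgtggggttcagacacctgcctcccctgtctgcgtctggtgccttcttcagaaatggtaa

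The *Cd3d* and *Cd3e* windows each held the ETS core once, which 23.7% of the 32544 promoters in the table also held. The *Cd3g* window held the E-box form CAGCTG once, and 16.4% of promoters held that form. The RUNX core TGTGGT, present in 16.7% of promoters, and the TATA box TATAAA, present in 13.6%, had no match in any of the 3 windows. No match overlapped another, and these are matches of letters only. The table held 7 of the 9 members. The other members lie at chr6:124841655-124874758 (*Cd4*), chr6:71350411-71356157 (*Cd8a*), chr6:71299772-71315087 (*Cd8b1*), chr7:43086497-43087678 (*Nkg7*), chr14:56496295-56499717 (*Gzmb*) and chr10:61133546-61140461 (*Prf1*) of GRCm39. *Cd3e* overlaps an antisense gene, *Gm48719*, and *Gm48720*, and *Cd8b1* overlaps *Gm68030*, and because the strand setting of the counting was not stated, their few reads may be shared.

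Over the 14 libraries the 9 genes drew 3941 reads, of which 96.7% were *Cd4* reads. The 8 others drew 129 reads together, and 41 of their 112 values, or 36.6%, were 0. Their mean expression ran from 0.0130 RPKM for *Cd8a* to 0.0414 RPKM for *Nkg7*, against 2.48 RPKM for *Cd4*. The highest value of any of the 8 in any library was 0.104 RPKM, for *Nkg7* in *Cort*-/- MCAO replicate 1, and the lowest value of *Cd4* in any library was 0.525 RPKM. Among all genes of the table, 74.0% had a lower mean than *Cd4* and 35.1% a lower mean than *Nkg7*, with the other 7 between 19.0% and 27.1%. A ceiling of 5 reads in every library held for 39.8% of all genes and for 9.76% of the 18372 genes that the annotation lists as protein-coding. One read was worth 0.00734 to 0.0121 RPKM for *Cd8a*, the longest, and 0.0261 to 0.0430 RPKM for *Nkg7*, the shortest.

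**Figure D1:**
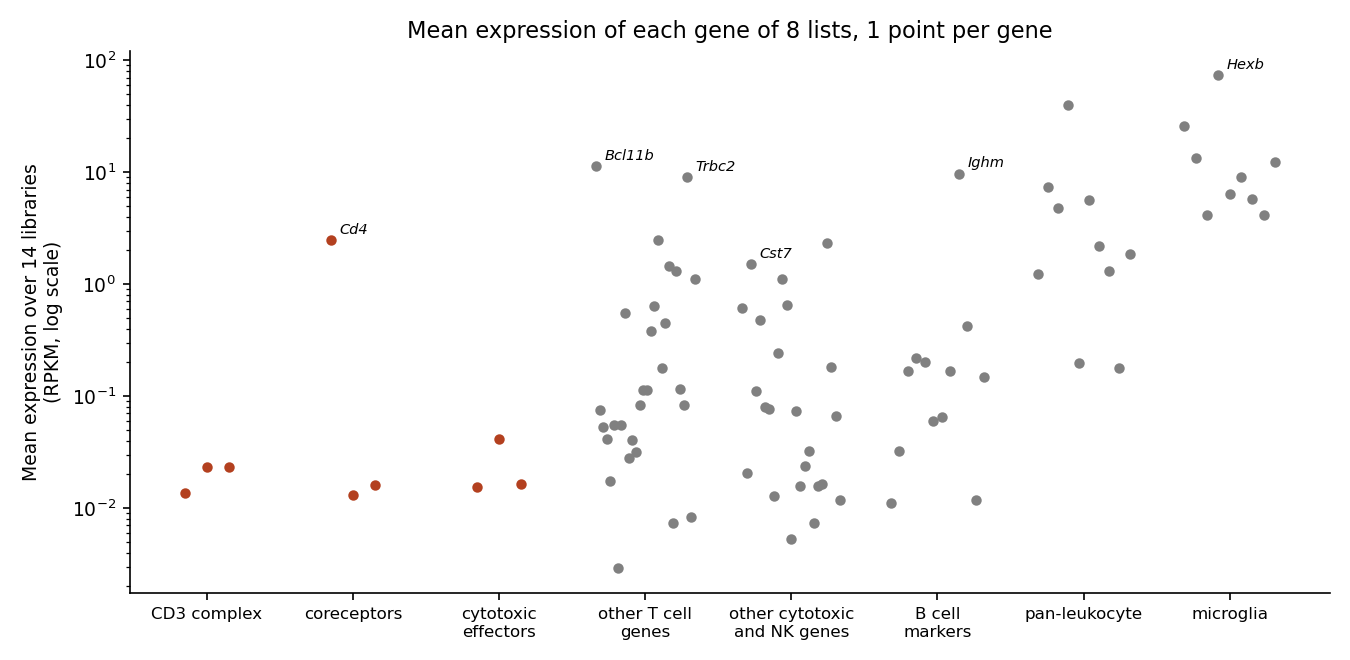
Mean expression over the 14 libraries (RPKM, log scale) of each gene in 8 lists, 1 point per gene, with the 9 members in red. *Cd4* at 2.48 RPKM stands above the other 8 members, which lie between 0.0130 and 0.0414 RPKM, below all pan-leukocyte and microglia genes shown.

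*Cd3e*, the CD3 epsilon chain, drew 0, 0 and 5 reads in *Cort*+/+ CL, 1, 4 and 0 in *Cort*+/+ MCAO, 2, 1 and 0 in *Cort*-/- CL, and 2, 2, 1, 0 and 0 in *Cort*-/- MCAO hemispheres. Its highest count came from a CL library, *Cort*+/+ CL replicate 3, and all 4 groups overlapped. *Cd3d*, the delta chain, drew 0, 0 and 2 reads in *Cort*+/+ CL, 0, 2 and 0 in *Cort*+/+ MCAO, 0, 1 and 0 in *Cort*-/- CL, and 0, 0, 0, 4 and 3 in *Cort*-/- MCAO hemispheres. It was at 0 in 9 of 14 libraries, the most among the members, and its groups overlapped too. *Cd3g*, the gamma chain, drew no read in the 3 *Cort*+/+ CL libraries, 1, 4 and 1 in *Cort*+/+ MCAO, 1, 0 and 1 in *Cort*-/- CL, and 3, 1, 0, 0 and 1 in *Cort*-/- MCAO hemispheres. It separated *Cort*+/+ MCAO from *Cort*+/+ CL without overlap, as did 9.84% of all genes tested, and on the scale of log2(RPKM + 0.1) the difference was 0.57 ± 0.20 (SE; limma, adjusted p = 0.455; exact two-sided permutation p = 0.1, the smallest that 3 against 3 libraries allow). In *Cort*-/- mice the same difference was 0.03 and the groups overlapped. With 0.01 or 1 RPKM added in place of 0.1, the *Cort*+/+ difference was 2.45 or 0.07, so its size rests on that choice. Since 3 reads, the floor used for a count of 0, are 0.0674 to 0.111 RPKM for *Cd3g*, no fold change is given. All 3 chains were above 0 together in 1 library, *Cort*+/+ MCAO replicate 3, and at 0 together in 2 libraries, both of them *Cort*+/+ CL.

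*Cd8a* and *Cd8b1* encode the alpha and beta chains of CD8, and they lie 35324 bases apart. *Cd8a* drew 0, 1 and 2 reads in *Cort*+/+ CL, 2, 3 and 2 in *Cort*+/+ MCAO, 1, 0 and 0 in *Cort*-/- CL, and 2, 1, 2, 4 and 1 in *Cort*-/- MCAO hemispheres. Every MCAO library held at least 1 *Cd8a* read, while 3 of the 6 CL libraries held none. In *Cort*+/+ mice the groups shared a count of 2 reads but did not overlap in RPKM, at most 0.0171 in CL and at least 0.0178 in MCAO hemispheres (limma, adjusted p = 0.828; exact two-sided permutation p = 0.1, the smallest possible), and in *Cort*-/- mice they overlapped. *Cd8b1* drew 0, 0 and 1 reads in *Cort*+/+ CL, 2, 2 and 0 in *Cort*+/+ MCAO, 0, 1 and 0 in *Cort*-/- CL, and 2, 0, 2, 1 and 1 in *Cort*-/- MCAO hemispheres. Both chains were above 0 together in 7 libraries. Averaged over the genotypes, *Cd8a* differed by 0.17 ± 0.06 on the log2 scale (SE; limma, unadjusted p = 0.0240, adjusted p = 0.232), which did not pass over all genes.

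*Nkg7* drew 1, 2 and 1 reads in *Cort*+/+ CL, 3, 2 and 2 in *Cort*+/+ MCAO, none in the 3 *Cort*-/- CL libraries, and 4, 2, 1, 0 and 1 in *Cort*-/- MCAO hemispheres. Its level was 0.0424 ± 0.0201 RPKM (SD, n = 3) in *Cort*+/+ CL, 0.0745 ± 0.0196 RPKM (n = 3) in *Cort*+/+ MCAO, 0 in each *Cort*-/- CL library and 0.0458 ± 0.0382 RPKM (n = 5) in *Cort*-/- MCAO hemispheres. *Cort*-/- CL hemispheres thus lay below all *Cort*+/+ CL hemispheres, by 1 or 2 reads a library, and 6.25% of all genes tested showed no overlap in that comparison. The difference did not pass (limma, adjusted p = 1; exact two-sided permutation p = 0.1, the smallest possible), nor did the one between MCAO and CL in *Cort*-/- mice, 0.51 ± 0.19 on the log2 scale (limma, adjusted p = 0.243; exact permutation p = 0.125). *Gzmb* drew 1, 1 and 1 reads in *Cort*+/+ CL, 0, 3 and 0 in *Cort*+/+ MCAO, 0, 2 and 0 in *Cort*-/- CL, and 1, 1, 0, 2 and 0 in *Cort*-/- MCAO hemispheres. *Prf1* drew 1, 0 and 1 reads in *Cort*+/+ CL, 1, 3 and 1 in *Cort*+/+ MCAO, 1, 1 and 2 in *Cort*-/- CL, and 5, 1, 2, 1 and 2 in *Cort*-/- MCAO hemispheres. *Gzmb* overlapped between all groups compared. *Prf1* was above 0 in 13 of 14 libraries, and on the RPKM scale all *Cort*+/+ CL libraries, at most 0.0107 RPKM, lay below the 3 *Cort*+/+ MCAO libraries, which started at 0.0108 RPKM, and below the 3 *Cort*-/- CL libraries, which started at 0.0112 RPKM. Both gaps are smaller than the worth of 1 read, and neither difference passed (limma, adjusted p = 0.888 and 1; exact two-sided permutation p = 0.1 in both, the smallest possible). The 3 effectors were above 0 together in 5 libraries.

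**Figure D2:**
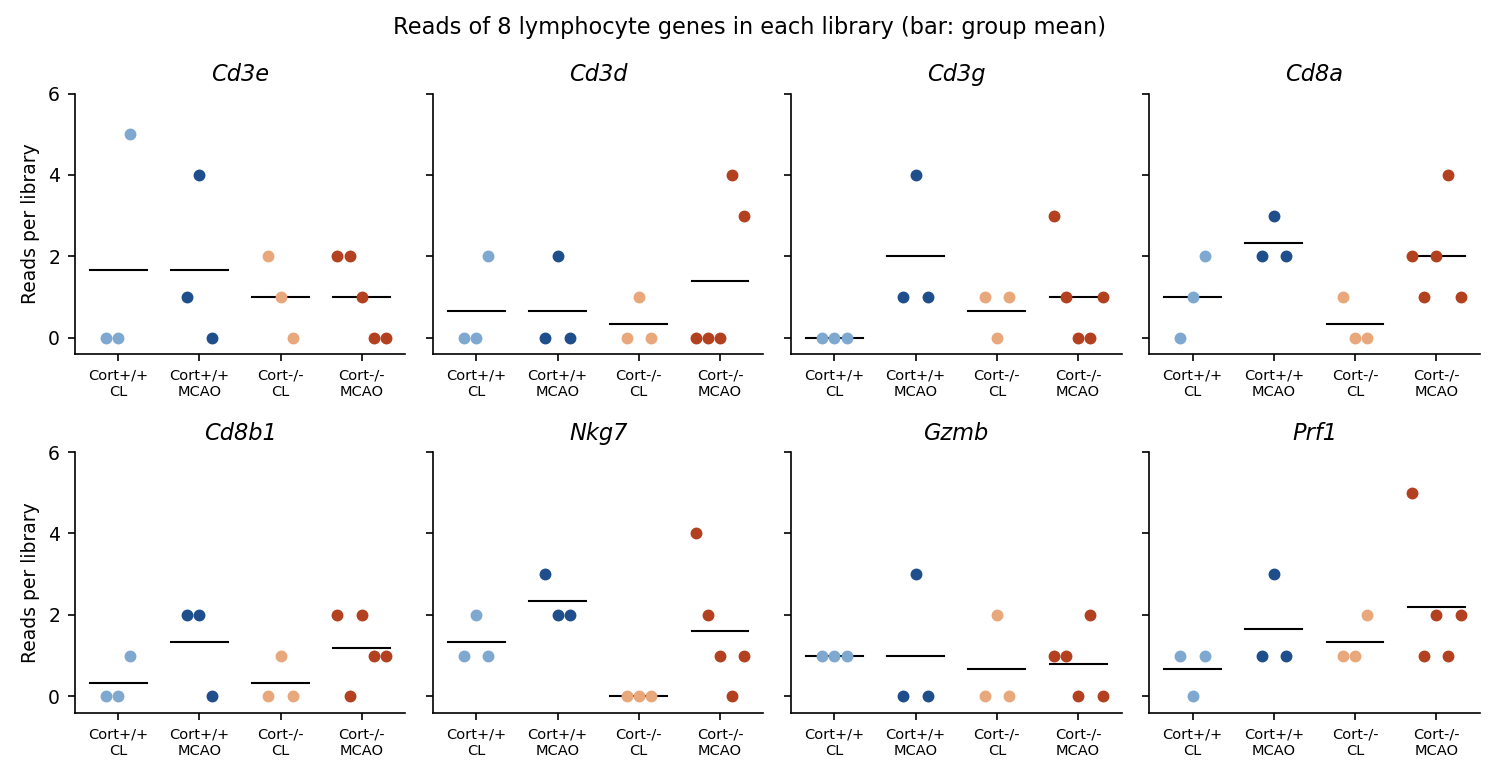
Reads per library (y axis) of the 8 members other than *Cd4* in the 4 groups (x axis), 1 point per library, with a bar at the group mean. No library holds more than 5 reads of any of these genes.

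Summed over the 8 genes, CL libraries held 3 to 13 reads and MCAO libraries 6 to 23, so the 2 ranges overlapped. *Cort*+/+ CL replicates 1 and 2 held 3 and 4 reads and replicate 3 held 13, which exceeds the sum of 6 of the 8 MCAO libraries. Pooled over libraries, CL hemispheres gave 34 and MCAO hemispheres 95 reads, or 5.67 and 11.9 a library. By role, the CD3 genes gave 13 reads in CL and 30 in MCAO, the CD8 genes 6 and 27, and the effectors 15 and 38. Of the 8 ratios of pooled reads corrected for depth, MCAO to CL, 6 were above 1, from 1.84 for *Prf1* to 3.80 for *Cd3g*, and those of *Cd3e* and *Gzmb* were 0.864 and 0.968. All 8 exact 95% intervals held 1, the narrowest being 0.307 to 2.52 for *Cd3e* and the widest 0.830 to 35.3 for *Cd3g*, and for *Cd8a*, with the most reads after *Prf1*, the interval was 0.959 to 12.0. These intervals cover counting error only, not the spread between mice. Their upper bounds ran from 2.52 for *Cd3e* to 35.3 for *Cd3g*, so for most of these genes a several-fold rise lay within the interval.

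*Cd4* was lower in every MCAO hemisphere than in every CL hemisphere of either genotype, a pattern that 0.651% of all genes tested showed. In *Cort*+/+ mice it was 4.11, 3.67 and 4.51 RPKM in CL and 1.39, 1.21 and 2.82 RPKM in MCAO hemispheres, or 394 to 523 and 154 to 271 reads. In *Cort*-/- mice it was 3.76, 3.47 and 3.53 RPKM in CL and 0.525, 1.03, 1.53, 1.42 and 1.80 RPKM in MCAO hemispheres, or 355 to 403 and 71 to 215 reads. The CL libraries lay close together, and the MCAO libraries spread from *Cort*-/- replicate 1 at the bottom to *Cort*+/+ replicate 4 at the top. Group means were 4.09 ± 0.422 RPKM (SD, n = 3) and 1.81 ± 0.880 RPKM (n = 3) in *Cort*+/+ CL and MCAO, and 3.59 ± 0.153 RPKM (n = 3) and 1.26 ± 0.498 RPKM (n = 5) in *Cort*-/- CL and MCAO hemispheres. From highest to lowest the order was *Cort*+/+ CL, *Cort*-/- CL, *Cort*+/+ MCAO and *Cort*-/- MCAO, and the groups of the same hemisphere overlapped while CL and MCAO did not.

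**Figure D3:**
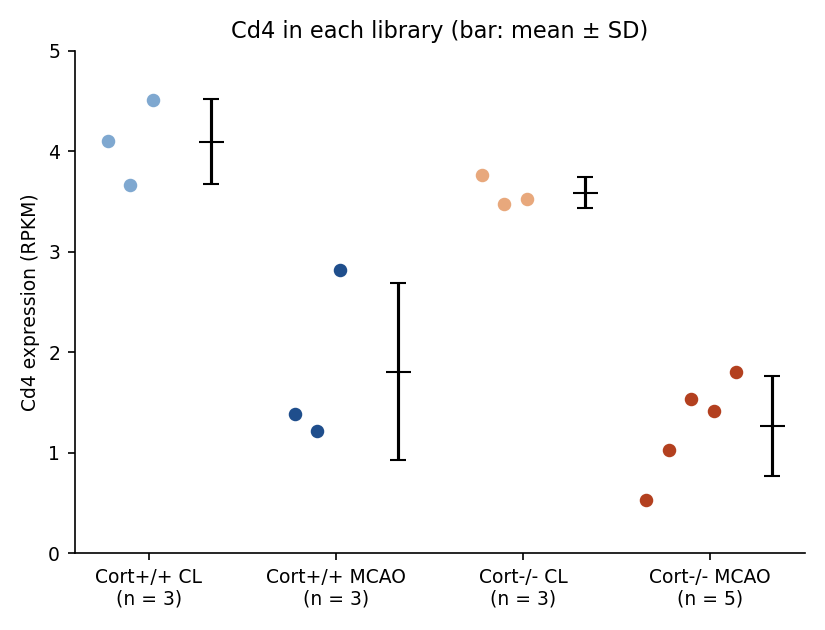
*Cd4* expression in RPKM (y axis) in each library of the 4 groups (x axis), with mean ± SD beside the points. All 8 MCAO points, at most 2.82 RPKM, lie below all 6 CL points, which start at 3.47 RPKM.

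Between hemispheres of *Cort*-/- mice, *Cd4* fell by 1.53 on the log2 scale (SE 0.32; limma, adjusted p = 0.0332; exact two-sided permutation p = 0.0179, the smallest that 3 against 5 libraries allow). It was the 1 called member of 9, where 1.72% of 46102 genes were called. By limma *Cd4* and *Nkg7*, 2 of 9, had an unadjusted p under 0.05 there, as did 5862 of 46102 genes, and voom added *Cd8a*. In *Cort*+/+ mice the *Cd4* difference was -1.23 ± 0.36 (SE), which limma did not call (adjusted p = 0.329, exact permutation p = 0.1, the smallest possible). The study, which used edgeR, lists *Cd4* as lower in MCAO hemispheres of both genotypes. Here 0 of 9 members were called in *Cort*+/+ mice by limma and by limma voom on recovered reads, with 0.0108% of all genes called. *Cd4* and *Cd3g*, 2 of 9, had an unadjusted p under 0.05 by either tool, as did 7.87% of all genes by limma. Averaged over the genotypes *Cd4* fell by 1.38 (SE 0.24; limma, adjusted p = 0.00763), again as the 1 called member, with 3.43% of genes called. By either tool 4 of 9 members, *Cd3g*, *Cd4*, *Cd8a* and *Nkg7*, had an unadjusted p under 0.05 in this average, as did 6849 of 46102 genes by limma. In that comparison 1163 genes were called higher and 416 lower, and 1279 and 206 after rescaling every library to the same RPKM sum (TPM), where the *Cd4* call held. The call in *Cort*-/- mice was lost without any of its CL libraries (adjusted p = 0.131, 0.0929 and 0.114 without replicates 1, 2 and 3) and without MCAO replicate 2 (0.0618) or 4 (0.0605), within a range of 0.00371 to 0.131 over 25 alternatives, while its difference stayed between -1.89 and -1.05. The averaged call held in 24 of 24 alternatives (adjusted p = 0.000319 to 0.0316).

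Between genotypes, *Cd4* differed by -0.18 in CL and -0.49 in MCAO hemispheres (*Cort*-/- minus *Cort*+/+, log2 scale), with 95% intervals of -0.96 to 0.60 and -1.18 to 0.21. Neither passed (limma, adjusted p = 1 in both; exact permutation p = 0.2 and 0.411). Among the 9 members 0 were called by limma or voom in either comparison, with 0.0152% and 0.0174% of all genes called, and 1 member in CL, *Nkg7*, and 0 in MCAO had an unadjusted p under 0.05 by either tool, where limma gave 3.91% and 3.82% of all genes. The effect of MCAO on *Cd4* differed between genotypes by -0.31 (95% interval -1.35 to 0.74; limma interaction, adjusted p = 1.00), and 0 of 9 members were called for the interaction, where 0.00217% of all genes were. By limma 0 members had an unadjusted p under 0.05 there, where 3.31% of all genes did, and by voom 1, *Cd3g*. Without *Cort*+/+ MCAO replicate 4 the *Cd4* interaction was 0.046 and without *Cort*-/- MCAO replicate 1 it was -0.051, so its sign turned without the former.

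**Figure D4:**
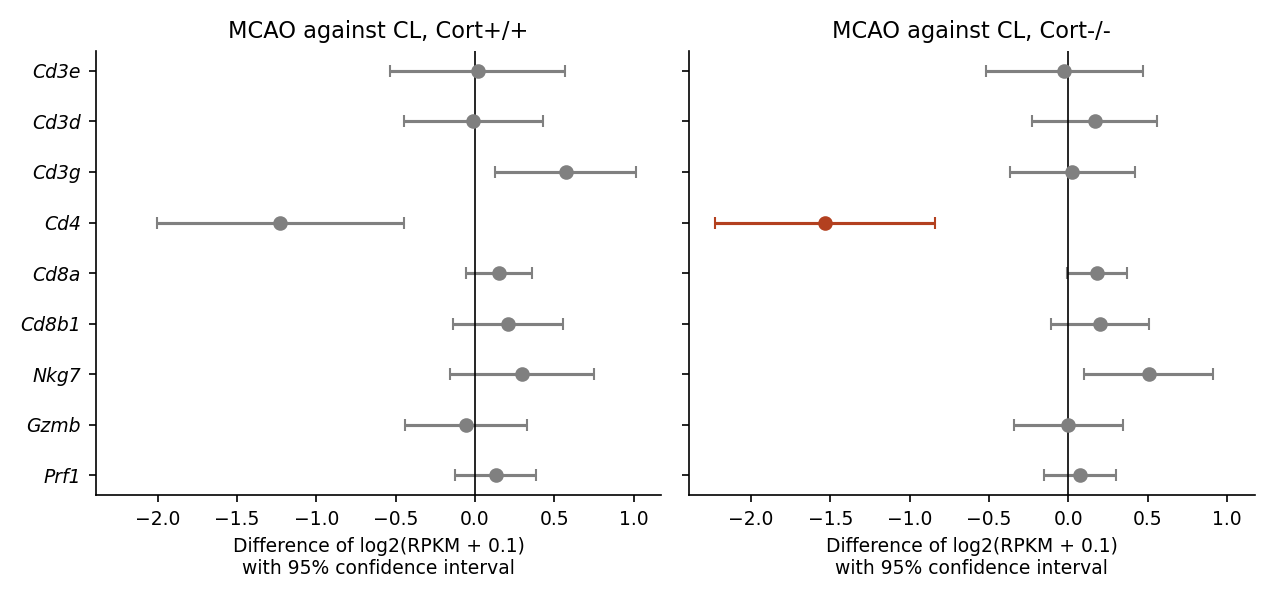
Difference between MCAO and CL hemispheres on the scale of log2(RPKM + 0.1), with its 95% confidence interval from limma (x axis), for the 9 members (y axis) in *Cort*+/+ (left) and *Cort*-/- mice (right). The *Cd4* difference in *Cort*-/- mice, in red, is the one called, and the differences of the other 8 members lie between -0.06 and 0.57. The 0.1 RPKM added before the log is near the highest value of these 8, 0.104 RPKM, so their differences and intervals depend on it.

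*Cd4* was the member most abundant in CL hemispheres, where CD3 reads were near 0. *Cort*+/+ CL replicate 1 held 463 *Cd4* reads and no CD3 read, and replicate 2 held 394 and none. Markers of other immune cells are given beside it. Of 10 pan-leukocyte genes, including *Ptprc* (CD45), 6 were called higher in *Cort*-/- MCAO hemispheres and 0 lower, against 1.34% of all genes higher, and their median difference was 1.23 on the log2 scale. *Ptprc* rose from 0.743 ± 0.0568 RPKM (SD, n = 3) to 1.93 ± 0.487 RPKM (n = 5), and the list summed to 46.3 to 56.1 RPKM in *Cort*-/- CL and 64.7 to 99.4 RPKM in *Cort*-/- MCAO hemispheres. In *Cort*+/+ mice it summed to 43.0 to 54.6 and 55.6 to 90.2 RPKM. *Coro1a*, the most expressed gene of the list, made up much of these sums and was not called in either genotype. It was at 37.4 ± 3.14 RPKM (SD, n = 3) in *Cort*-/- CL and 43.6 ± 2.67 RPKM (n = 5) in *Cort*-/- MCAO hemispheres. Of the 9 microglia markers that were measured, 4 were called higher in *Cort*-/- mice and 0 lower, and their sum ran from 101 to 117 RPKM in *Cort*-/- CL, 153 to 227 in *Cort*-/- MCAO, 103 to 108 in *Cort*+/+ CL and 134 to 208 RPKM in *Cort*+/+ MCAO hemispheres. In *Cort*+/+ mice 0 of these 19 genes were called, where 0.0108% of all genes were. The median difference there was 0.96 for the pan-leukocyte genes. For the microglia markers it was 0.62 in *Cort*+/+ and 0.67 in *Cort*-/- mice. Of 10 plasmacytoid and dendritic cell markers, 1 was called higher in *Cort*-/- mice, *Itgax*, with a median difference of 0.07 and sums of 10.4 ± 0.647 RPKM (SD, n = 3) in CL and 12.5 ± 1.16 RPKM (n = 5) in MCAO hemispheres. None of the 19 pan-leukocyte and microglia genes was at 5 reads or fewer in every library. The part of such cells in the *Cd4* values was not tested.

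Genes whose deviations from their group means, on the log2 scale, were most like those of *Cd4* over the 14 libraries were *Enpp5* (Pearson r = 0.940), *Copa* (r = 0.935) and *Pde1b* (r = 0.920), among 17476 genes of at least 0.5 RPKM. Without *Cort*-/- MCAO replicate 1 and *Cort*+/+ MCAO replicate 4, the libraries farthest from their group in *Cd4*, r was 0.828, 0.830 and 0.858. *Pde1b*, a calcium-dependent phosphodiesterase rich in the striatum, belongs to a set of 10 genes that the study used as markers of spiny neurons, and this set was examined only after the *Cd4* values were seen. The mean deviation of the set, which includes *Pde1b*, had r = 0.973 with that of *Cd4* (14 libraries, which share depth and tissue piece, given with no test). For the pan-leukocyte genes r was -0.521 and for the microglia markers -0.686. Over the other lists r ran from -0.850 for the cytotoxic effectors, at most 5 reads a library each, to 0.404 for the erythrocyte genes. Single genes of the spiny neuron set ran from r = 0.272 (*Dmkn*) to 0.920 (*Pde1b*). Without *Cort*-/- MCAO replicate 1 and *Cort*+/+ MCAO replicate 4 they ran from 0.175 (*Npas2*) to 0.858 (*Pde1b*). Of the 10 genes, 3 were called lower in *Cort*-/- MCAO hemispheres, *Foxp1*, *Pde1b* and *Rarb*, and 8 averaged over the genotypes, with 0 higher in either, where 0.382% and 0.902% of all genes were called lower. *Pde1b* fell by 0.50 on the log2 scale in *Cort*-/- mice (limma, adjusted p = 0.0280), from 83.8 ± 0.748 RPKM (SD, n = 3) to 59.5 ± 6.36 RPKM (n = 5). The 10 genes summed to 177 to 186 RPKM in *Cort*+/+ CL, 124 to 168 in *Cort*+/+ MCAO, 177 to 183 in *Cort*-/- CL and 107 to 145 RPKM in *Cort*-/- MCAO hemispheres. *Cort*-/- MCAO replicate 1 was lowest in both *Cd4* and the set, and *Cort*+/+ MCAO replicate 4 was the MCAO library highest in both. Their part in the *Cd4* difference was not tested.

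**Figure D5:**
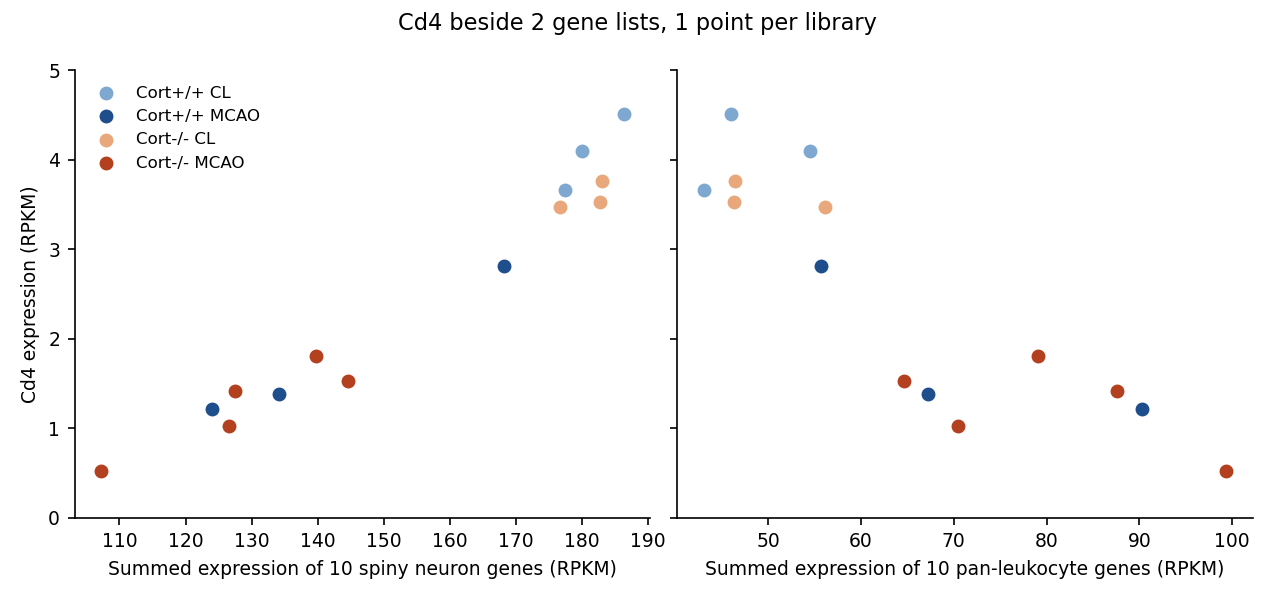
*Cd4* expression in RPKM (y axes) beside the summed RPKM of 10 spiny neuron genes (left x axis) and of 10 pan-leukocyte genes (right x axis), 1 point per library, coloured by group. The library lowest in *Cd4*, *Cort*-/- MCAO replicate 1, is lowest in the spiny neuron genes, at 107 RPKM, and highest in the pan-leukocyte genes, at 99.4 RPKM. *Coro1a*, at a mean of 40.0 RPKM, makes up much of the pan-leukocyte sum.

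The likeness measure was also taken for the next most expressed members, *Nkg7* and *Cd3g*, and named *Klhdc8b* (r = 0.913), *Coprs* (r = 0.895) and *Ccdc13* (r = 0.893) for *Nkg7* and *Serpinf1* (r = 0.942), *H2-Ab1* (r = 0.918) and *Mettl6* (r = 0.905) for *Cd3g*. With 0 to 4 reads a library for both members, these values describe which libraries held a read. The genes beside *Cd4* on chromosome 6 were read as well. *Gpr162*, which lies 527 bases from *Cd4*, was at 53.3 to 60.2 RPKM in all libraries. *Lag3*, a CD4-related receptor of activated T cells that lies 6562 bases away on the other side, rose by 0.86 on the log2 scale in *Cort*-/- mice (SE 0.16, limma adjusted p = 0.0223), from 1.84 ± 0.399 RPKM (SD, n = 3) to 3.38 ± 0.259 RPKM (n = 5). In *Cort*+/+ mice *Lag3* was 1.89 ± 0.316 RPKM (n = 3) in CL and 2.70 ± 0.630 RPKM (n = 3) in MCAO hemispheres, and these groups overlapped. The CL libraries, where CD3 reads were near 0, held 97 to 163 *Lag3* reads.

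A list of 28 other genes of the T cell receptor and its signalling was tested gene by gene, with no test of the list. In *Cort*-/- MCAO hemispheres 1 was called higher, *Icos*, and 1 lower, *Bcl11b*, and averaged over the genotypes *Pdcd1* joined *Icos*. Over all genes 1.34% were called higher and 0.382% lower in *Cort*-/- mice, and 3.43% were called in the average. None passed in *Cort*+/+ mice, between genotypes or for the interaction, and the median difference of the list was 0.04 in *Cort*-/- and 0.10 in *Cort*+/+ mice, beside 0 over all genes. *Icos*, a costimulatory receptor of activated T cells, was at 0 to 11 reads a library and rose from 0.00866 to 0.0536 RPKM in *Cort*-/- mice (log2 difference 0.50, limma adjusted p = 0.0480). *Pdcd1*, which encodes the inhibitory receptor PD-1, was at 0 to 43 reads and rose by 1.52 averaged over the genotypes (limma, adjusted p = 0.0133). *Bcl11b*, a transcription factor of T cells that is also made by striatal and cortical neurons, fell from 13.6 ± 0.582 RPKM (SD, n = 3) to 9.83 ± 1.27 RPKM (n = 5) in *Cort*-/- mice (log2 difference -0.48, limma adjusted p = 0.0359). The list was uneven in level. *Cd27*, *Cd40lg*, *Ctla4* and *Themis* had at most 5 reads in every library, as 8 members did, while 6 of the 28 averaged at least 1 RPKM, led by *Bcl11b* at 11.3 RPKM and *Trbc2*, a receptor beta constant gene, at 9.08 RPKM and 162 to 387 reads. The list summed to 28.4 to 34.7 RPKM in *Cort*+/+ CL hemispheres and to 27.6 to 31.4 RPKM over the other groups, ranges that overlapped.

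Of 23 other cytotoxic and NK cell genes, 1 was called, *Cst7*, higher in *Cort*-/- mice, where 1.34% of all genes were, and averaged over the genotypes, where 3.43% of all genes were called. The median difference of the list was 0.14 in both genotypes, and none passed in *Cort*+/+ mice, between genotypes or for the interaction. *Cst7* encodes cystatin F, a protease inhibitor of cytotoxic lymphocytes that activated microglia also make. It rose from 0.296 ± 0.215 RPKM (SD, n = 3) to 2.76 ± 1.20 RPKM (n = 5) in *Cort*-/- mice (log2 difference 2.89, limma adjusted p = 0.0296), and was 0.102 ± 0.113 RPKM (n = 3) and 2.00 ± 1.38 RPKM (n = 3) in *Cort*+/+ CL and MCAO hemispheres (log2 difference 3.22, adjusted p = 0.161). The study, which used edgeR, lists *Cst7* and *Pdcd1* as higher in MCAO hemispheres of both genotypes. *Gzmc*, *Ncr1*, *Klrd1*, *Klre1*, *Klra8*, *Ifng* and *Xcl1* had at most 5 reads in every library. Among them, *Ncr1* encodes the activating receptor NKp46 that defines NK cells, and *Ifng* encodes interferon gamma. *Serpinb9*, a granzyme B inhibitor, was the most expressed gene of the list at 2.34 RPKM and was not called.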

How the data were processed

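mRNA of 14 hemispheres was measured. The authors aligned reads with reanalyzerGSE v3.0.0 to GRCm39 with GENCODE M28 and deposited RPKM per library, unpooled, so each value depends on their gene lengths and library scaling, which are not given in the sources used here. Dividing values by the worth of 1 read gave whole reads for 99.997% of 495656 values above 0 (within 0.01 reads). That worth was found for each gene as the one that makes its values whole, so this share is no independent check. No column lacked a sample.

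Genes above 0 in at least 2 libraries (46102 of 46904) were fitted as log2(RPKM + 0.1) with limma 3.58.1 (R 4.3.3), 1 model of 4 groups with variance trend, and called at a Benjamini-Hochberg adjusted p under 0.05. A log2 difference on this scale understates changes of low genes. Exact permutation tests were two-sided. The study's methods describe independent biological replicates, and state that where variability was large only replicates that grouped clearly entered a comparison. Whether *Cort*+/+ MCAO libraries were left out in this way was not stated. Fits were tested on simulated data. The 9 members and the lists were chosen with earlier results of these data known. Named genes are the members, the called genes and the 2 most expressed of the other T cell and cytotoxic lists, and the 3 most alike genes for 3 members. Of the further lists only some genes are named. Positions come from GENCODE M39, promoters from RefSeq (GRCm38.p6). The ETS motif was chosen after seeing the promoter letters, and the spiny neuron set and *Lag3* and *Gpr162* after the *Cd4* values. Other scalings, pseudocounts, filters, voom, replicate blocks and left-out libraries were alternatives. Values and figures were made with Python 3.11.15 (matplotlib 3.10.9, pandas 2.3.3, scipy 1.17.1, numpy 2.4.6).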

Additional observations from a re-analysis of the deposited data

How the results depend on the processing

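The count of members called was 1 for MCAO against CL in *Cort*-/- mice and became 0 when only those groups were fitted and with the replicate number as a fixed block, where the *Cd4* adjusted p was 0.0597 and 0.0964 at log2 differences of -1.53 and -1.89. It ranged from 0 to 1 with a library left out. The other 5 counts kept their value in every alternative. Same-numbered CL and MCAO libraries correlated between -0.239 and 0.316 in their deviations, and differently numbered ones between -0.316 and 0.404. With so few libraries a group, these values cannot decide whether the numbers pair hemispheres of the same mouse. A random block within genotype, with an estimated correlation of -0.00451, changed no call of a member. With a library left out, the *Cd4* interaction ranged from -0.53 to 0.046. A filter of a mean of at least 0.1 RPKM left *Cd4* as the 1 member tested. None of the 8 others was called in any of 1184 fits (lowest adjusted p = 0.0659), and 21 of their 48 differences took another sign in at least 1 alternative. Over all alternatives the number of all genes called ranged from 1 to 160 for MCAO against CL in *Cort*+/+ mice, 0 to 1294 in *Cort*-/- mice, 238 to 2179 averaged, 2 to 27 and 4 to 40 between genotypes in CL and MCAO hemispheres, and 0 to 16 for the interaction. The causes were not tested. With 0 to 5 reads a library, depth limits every statement on the 8 members, and 3 libraries a group limit those on *Cd4*.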

Other observations

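Of 12 B cell markers, 1 was called higher in *Cort*-/- MCAO hemispheres, *Cd22*, and none lower, with a median difference of 0.18 on the log2 scale, where 1.34% of all genes were called higher. *Ighm*, the heavy chain of IgM, averaged 9.70 RPKM. Of 11 neutrophil markers, 1 was called higher, *Csf3r*, with a median difference of 0.05, and *Ly6g* was at 5 reads or fewer in every library. All 12 monocyte and macrophage markers had a positive difference in both genotypes, the median being 0.98 in knockout and 0.37 in wild-type mice, and none was called in either. Of 9 brain cell markers, 2 were called higher in *Cort*-/- mice, the astrocyte genes *Gfap* and *Aqp4*. For each of these lists the share over all genes in the same comparison is the 1.34% above.

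The 6 erythrocyte genes, a mark of blood left in the tissue, summed to 125 to 330 RPKM in *Cort*+/+ CL, 97.0 to 257 in *Cort*+/+ MCAO, 91.0 to 141 in *Cort*-/- CL and 87.4 to 187 RPKM in *Cort*-/- MCAO hemispheres, and none was called between hemispheres.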
